A study of Homo sapiens with 6 samples.

Results

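The enzymes of fatty acid synthesis and desaturation, with the regulator that controls them, were examined as 10 genes, namely SREBF1, ACLY, ACACA, FASN, SCD, ELOVL5, ELOVL6, FADS1, FADS2 and ACSS2. They were chosen by name, and all 10 were found among the 27605 genes of the deposited table. RNA was sequenced from cells labelled HepG2, a human liver cancer cell line, in a control group (shNC, genotype WT, 3 libraries) and after lentiviral knockdown of ARHGEF2 (shARHGEF2, 3 libraries). Cells of both groups were kept in DMEM with serum and antibiotics. The sources used here do not say how many hairpins or separate cultures stand behind the 3 shARHGEF2 libraries, so the p-values measure the spread between libraries, which may be technical.

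Fatty acids are built in the cytosol from acetyl-CoA. ATP citrate lyase (ACLY) makes acetyl-CoA from citrate and ACSS2 makes it from acetate, ACACA turns it into malonyl-CoA, and FASN joins these units into palmitate. ELOVL6 and ELOVL5 lengthen the chain, SCD places the first double bond, and FADS1 and FADS2 add further double bonds to polyunsaturated chains. SREBF1 encodes SREBP1, the transcription factor that is held in the ER membrane, is cut free in the Golgi and then switches these enzymes on. The liver is a main site of this pathway, and many tumours use it to make membrane lipid.

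The targeted gene was examined first. ARHGEF2 had 13.0, 14.4 and 13.9 FPKM (fragments per kilobase of transcript, scaled to library size) in shNC replicates 1 to 3, and 4.25, 4.004 and 4.82 FPKM in shARHGEF2 replicates 1 to 3. The fitted log2 fold change was -1.47 with a standard error (SE) of 0.11 and a limma adjusted p = 0.00244. No shARHGEF2 value came near a shNC value. The cell label was checked against 12 hepatocyte markers. Of these, 6 were found in the table, and RBP4, the highest, reached 0.907 FPKM. AFP, APOA1, APOA2, SERPINA1 and HNF4A stayed at or below 0.248 FPKM in each library. The 6 hepatocyte markers that were found were therefore low or close to absent in both groups. ALB, APOB, TTR, TF, FGB and AHSG were not found, so their levels are not known from these data. Among markers of other cells, the 5 squamous genes summed to between 207 and 251 FPKM in shNC and to between 275 and 307 FPKM in shARHGEF2 cells. Nearly all of this was SFN, a stress-responsive 14-3-3 protein, while KRT5, KRT6A and TP63 stayed at or below 0.137 FPKM. The 5 fibroblast genes, mostly LUM, summed to 39.3 to 52.0 FPKM and 38.1 to 45.1 FPKM. They did not move together. Mean LUM was 32.7 FPKM in shNC and 27.1 FPKM in shARHGEF2 cells, and DCN was also lower. Mean COL1A1 was 6.37 and 8.66 FPKM, COL3A1 was also higher, and COL1A2 stayed at or below 0.0453 FPKM. The 3 leukocyte genes, almost wholly CD68, summed to 60.5 to 87.8 FPKM and 75.1 to 85.5 FPKM. The 3 endothelial genes found summed to 0.561 to 0.640 FPKM and 0.775 to 0.866 FPKM. What part these markers have in the results below was not tested. In bulk RNA, a change in the share of cells and a change in RNA per cell cannot be told apart.

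The 10 genes span a wide range of levels per length. FASN, SCD and ACLY were abundant, and together they made up between 81.7% and 85.2% of the summed FPKM of the 10 genes in each library. From high to low by the mean over 6 libraries, the order was FASN (184.5 FPKM), SCD (133.9), ACLY (75.9), ELOVL5 (22.3), SREBF1 (17.9), ACSS2 (14.9), FADS1 (13.7), ACACA (4.53), FADS2 (2.72) and ELOVL6 (1.32). Ranges over the 6 libraries overlapped between FASN and SCD, between ELOVL5 and SREBF1, between SREBF1 and ACSS2 and between ACSS2 and FADS1. All other neighbours in the order were separated. ACACA, whose product feeds FASN, stood at a far lower level than FASN itself, with a FASN to ACACA ratio between 24.5 and 60.5. Of the desaturases, SCD stood between 42.6-fold and 57.1-fold above FADS2.

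**Figure D1:**
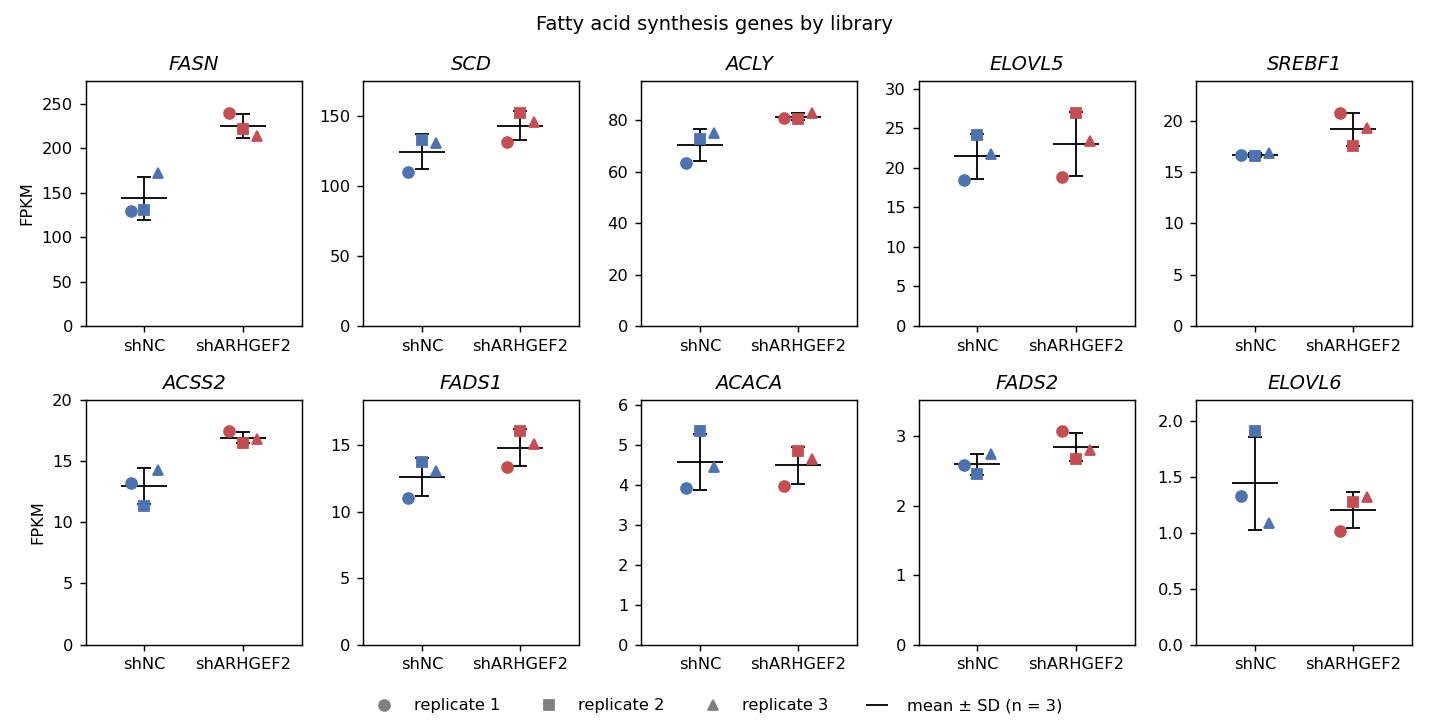
FPKM of the 10 genes in each library, one panel per gene in order of mean level, each axis starting at 0. Points are libraries, with a symbol for each replicate number, and bars are the mean ± SD (n = 3). FASN, ACLY, ACSS2 and SREBF1 are the 4 genes in which no shARHGEF2 point reaches down to a shNC point, and the widest gap is that of FASN (172 against 214 FPKM).

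The question was whether loss of ARHGEF2 went with another level of this pathway. With limma on log2(FPKM + 1), 0 of the 10 genes had an adjusted p under 0.05, against 34 of the 12291 genes tested (0.277%). At an unadjusted p under 0.05 there were 3 genes, FASN, ACSS2 and ACLY, all higher in shARHGEF2 cells, where 8.1% of all genes tested were higher and 5.55% were lower. The fitted log2 fold change was above 0 for 8 of the 10 genes, with a median of 0.19. The number above 0 ranged from 7 to 9 over the alternatives. It was 9 on the TPM scale, where ACACA turned, and 7 without shNC replicate 1 or without shARHGEF2 replicate 2. Over all genes tested 49.6% were above 0, and the median was -0.0016. The groups did not overlap in 4 of the 10 genes, all of them higher, where 11.3% of all genes tested were higher without overlap and 9.17% were lower. With 3 libraries against 3, an exact permutation test of a single gene cannot go below p = 0.1.

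**Figure D2:**
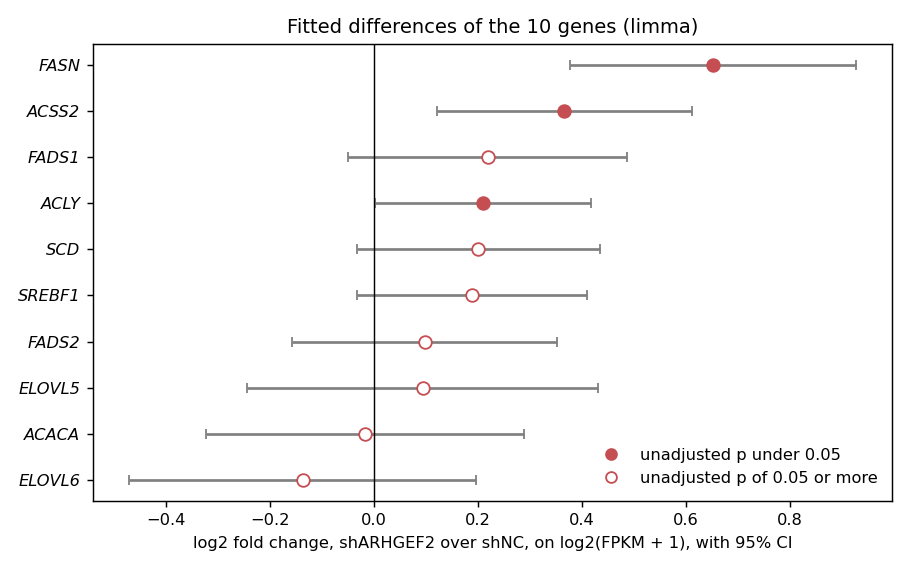
Fitted log2 fold change of each gene (shARHGEF2 over shNC, on log2(FPKM + 1)) with its 95% confidence interval from limma. Filled points have an unadjusted p under 0.05. The interval of FASN runs from 0.38 to 0.93, those of ACSS2 and ACLY also stay above 0, and the other 7 include 0.

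FASN, the multi-enzyme protein that carries out every step from malonyl-CoA to palmitate, gave the largest difference of the 10. It had 129.0, 131.1 and 172 FPKM in shNC replicates 1 to 3 and 239.9, 221 and 214 FPKM in shARHGEF2 replicates 1 to 3. The shNC libraries were spread wider than the shARHGEF2 libraries, since shNC replicate 3 lay well above the other two, and even so the groups did not overlap (two-sided exact permutation test, p = 0.1). The means were 144.0 ± 24.2 FPKM and 225 ± 13.4 FPKM (SD, n = 3 each). The log2 fold change was 0.65 (SE 0.12, limma adjusted p = 0.0900), which is 1.57-fold, and its 95% confidence interval on the log2 scale ran from 0.38 to 0.93. FASN ranked 67 by p among all genes tested. Among the 417 genes at 100 FPKM or more on average, 7, FASN included, had a log2 fold change at least as high. The adjusted p fell to 0.0230 without shNC replicate 3, with a log2 fold change of 0.79, and lay between 0.0746 and 0.399 under the other 13 alternatives. Removal of the trend with GC content, which was chosen after the data were seen, left a log2 fold change of 0.59 (limma adjusted p = 0.0861). FASN is encoded on the minus strand of chromosome 17 (ENSG00000169710, GENCODE 29 on GRCh38, from 82078333 to 82098332).

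**Figure D3:**
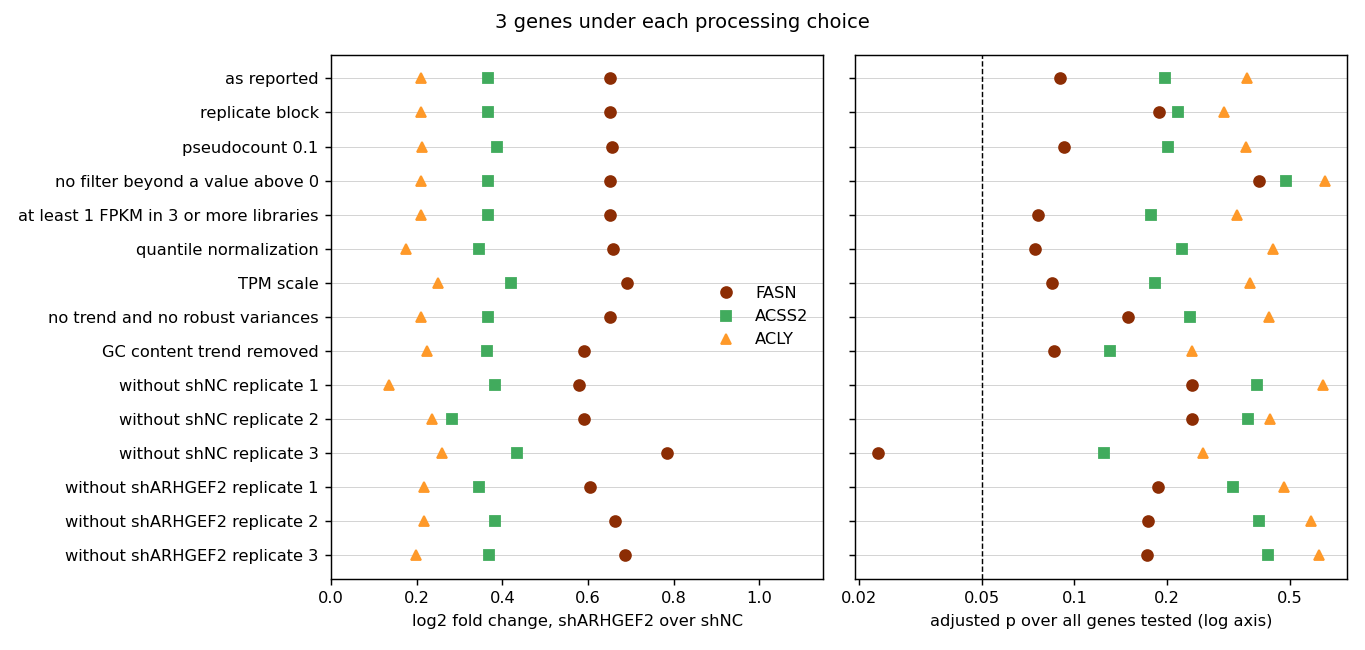
Log2 fold change (left) and adjusted p (right, log axis) of FASN, ACSS2 and ACLY as reported and under each of 14 processing alternatives. The dashed line marks an adjusted p of 0.05. FASN stays between 0.58 and 0.79 on the log2 scale and crosses the line once, without shNC replicate 3.

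The 2 enzymes that supply cytosolic acetyl-CoA came next. ACSS2, which ligates acetate to coenzyme A, had 13.2, 11.4 and 14.3 FPKM in shNC replicates 1 to 3 and 17.4, 16.5 and 16.8 FPKM in shARHGEF2 replicates 1 to 3. The lowest shARHGEF2 library stood above the highest shNC library, and the shARHGEF2 libraries lay close together. Its log2 fold change was 0.37 (SE 0.11, limma adjusted p = 0.197), a 1.29-fold difference with a 95% confidence interval of 1.09 to 1.53. ACLY had 63.3, 72.7 and 75.3 FPKM in shNC and 80.7, 80.7 and 82.9 FPKM in shARHGEF2 cells. These groups were also separate, with shNC replicate 1 farthest below the rest. The log2 fold change of ACLY was 0.21 (SE 0.09, limma adjusted p = 0.363), and its 95% confidence interval on the log2 scale began at 0.0024. Without shNC replicate 1 it was 0.14. The unadjusted p of ACLY in limma was 0.0480 as reported and ran from 0.0299 to 0.158 over the 14 alternatives. Its place among the 3 genes with an unadjusted p under 0.05 therefore depends on the setting. Neither gene had an adjusted p under 0.05 in any alternative, where the lowest values were 0.125 for ACSS2 and 0.241 for ACLY.

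SREBF1, the gene of the transcription factor, had 16.6, 16.5 and 16.9 FPKM in shNC and 20.7, 17.5 and 19.2 FPKM in shARHGEF2 cells. The shNC libraries were nearly level, and all 3 shARHGEF2 libraries lay above them. The log2 fold change was 0.19 (SE 0.10, limma adjusted p = 0.438), with a range of 0.13 to 0.25 when 1 library was left out. SREBF1 lies on chromosome 17 of GRCh38 from 17810399 to 17837002. RNA of SREBF1 says nothing of how much SREBP1 protein was cut free, and the 2 isoforms SREBP1a and SREBP1c share the one value in the table.

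Promoter sequence is shown for the genes whose groups did not overlap, because SREBP1 is known to act at elements close to the start site. RefSeq windows on GRCh38.p14 were found for 9 of the 10 genes, and FASN is the gene without an entry. Each line below gives the part of the 250 bases before a RefSeq start site that lies outside annotated exons, 5′ to 3′ on the gene's strand. It is chr17:41919023-41919272 (minus strand) for ACLY, chr20:34874739-34874941 (plus strand) for ACSS2, and chr17:17837003-17837236 (minus strand) for SREBF1. The ACLY and ACSS2 stretches belong to start sites inside the span of the GENCODE gene, while the SREBF1 stretch lies just before its gene. For ACLY and ACSS2 there was a second RefSeq start site. The stretch of the other ACLY site lies within the one shown, and that of the other ACSS2 site, chr20:34876362-34876434 (plus strand), is the last line and holds no match. Capitals mark matches on either strand to an E-box (CACGTG), a sterol element core (CACNCCA), an inverted CCAAT box (ATTGG) or a GC box (GGGCGG).
ACLY: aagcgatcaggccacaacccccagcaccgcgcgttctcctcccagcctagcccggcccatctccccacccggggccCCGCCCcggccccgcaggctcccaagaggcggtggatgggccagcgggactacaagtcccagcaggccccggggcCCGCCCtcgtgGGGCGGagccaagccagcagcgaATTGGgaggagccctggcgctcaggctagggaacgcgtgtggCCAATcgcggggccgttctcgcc
ACSS2: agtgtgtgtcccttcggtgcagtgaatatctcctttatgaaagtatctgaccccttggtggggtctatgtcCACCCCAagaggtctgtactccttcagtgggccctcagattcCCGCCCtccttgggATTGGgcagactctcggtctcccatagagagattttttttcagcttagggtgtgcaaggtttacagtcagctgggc
SREBF1: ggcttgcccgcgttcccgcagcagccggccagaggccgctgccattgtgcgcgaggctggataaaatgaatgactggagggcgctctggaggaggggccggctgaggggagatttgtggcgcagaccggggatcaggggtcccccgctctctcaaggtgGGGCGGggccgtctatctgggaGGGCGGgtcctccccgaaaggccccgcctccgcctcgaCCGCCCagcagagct
ACSS2, other start site: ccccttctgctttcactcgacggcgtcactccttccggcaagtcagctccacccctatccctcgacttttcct

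Counted over the 250 bases before every RefSeq start site of a gene, an E-box was found in 1 of the 9 genes (ELOVL5), where 7.73% of 27305 genes held one. The sterol element core was found in 3 of 9 (ACACA, ACSS2 and SCD), against 17.4% of all genes. The inverted CCAAT box, the letters that NF-Y binds, was found in 5 of 9, against 37.0% of all genes. The GC box, bound by Sp1, was found in 8 of 9, against 46.2%. These are letter matches, not measured sites. A GC box stood in the windows of ACLY, ACSS2 and SREBF1, and also in those of ACACA and ELOVL6, whose fitted differences were below 0.

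Among the desaturases, SCD, which makes oleate from stearate, had 110.0, 132.8 and 131.2 FPKM in shNC and 131.7, 152 and 145.5 FPKM in shARHGEF2 cells. The groups overlapped, because shARHGEF2 replicate 1 fell among the shNC libraries. The log2 fold change of SCD was 0.20 (SE 0.10, limma adjusted p = 0.436). FADS1, the delta-5 desaturase of polyunsaturated fatty acids, had 11.05, 13.8 and 13.0 FPKM in shNC and 13.3, 16.0 and 15.1 FPKM in shARHGEF2 cells. Here too shARHGEF2 replicate 1 was the library that overlapped with shNC. FADS1 had a log2 fold change of 0.22 (SE 0.12, limma adjusted p = 0.459). Without shNC replicate 1, the low library of both genes, the log2 fold change was 0.11 for SCD and 0.13 for FADS1. FADS2, the delta-6 desaturase, had 2.58, 2.45 and 2.74 FPKM in shNC and 3.07, 2.67 and 2.79 FPKM in shARHGEF2 cells, and the log2 fold change was 0.10 (SE 0.11), or 0.056 without shARHGEF2 replicate 1 and 0.15 on the TPM scale. FADS1 and FADS2 overlap on opposite strands of chromosome 11. The protocol marks the strand, but whether the counting used it is not given in the sources used here, so FADS1 and FADS2 values are uncertain where the genes overlap. The same holds for SREBF1 with RAI1 and for ACSS2 with GGT7, which also lie on opposite strands. FEN1, at a mean of 78.4 FPKM in shNC and 97.1 FPKM in shARHGEF2 cells, lies within the span of FADS2 on the same strand. Strand marking cannot tell FADS2 from FEN1, so the FADS2 value and its small difference are uncertain whichever way the counting was done.

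The carboxylase and the elongases gave no separation. ACACA, which makes the malonyl-CoA that FASN uses, had 3.93, 5.34 and 4.45 FPKM in shNC and 3.97, 4.86 and 4.66 FPKM in shARHGEF2 cells. All shARHGEF2 values fell inside the shNC range. Its log2 fold change was -0.02 with a 95% confidence interval of -0.32 to 0.29, so a difference as large as that fitted for FASN lay outside the interval. The sign turned in 4 alternatives, among them the TPM scale (0.016). ELOVL5, the elongase of polyunsaturated chains, had 18.4, 24.1 and 21.8 FPKM in shNC and 18.8, 26.9 and 23.4 FPKM in shARHGEF2 cells, and its log2 fold change was 0.09 (SE 0.15). It was below 0 without shNC replicate 1 (-0.0071) or shARHGEF2 replicate 2 (-0.021). ELOVL6, which lengthens palmitate to stearate, had 1.33, 1.91 and 1.09 FPKM in shNC and 1.02, 1.27 and 1.32 FPKM in shARHGEF2 cells. It was the lowest of the 10 genes and the most spread within shNC. Its log2 fold change was -0.14 (SE 0.15), and the interval ran from -0.47 to 0.20. It was -0.0044 without shNC replicate 2, -0.24 without shNC replicate 3, -0.07 without shARHGEF2 replicate 1 and -0.22 with a pseudocount of 0.1.

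Ratios of FASN to other members within a library do not depend on a single scale factor for each library. They can still move with the trend along GC content that is described below. The median GC content of the listed transcripts was 65.3% for FASN, 52.3% for ACLY, 47.1% for SCD and 63.4% for SREBF1. FASN was taken as numerator because its difference was the largest, so the ratios describe that difference again and were not tested. The ratio of FASN to ACLY was 2.04, 1.80 and 2.28 in shNC replicates 1 to 3 and 2.97, 2.75 and 2.58 in shARHGEF2 replicates 1 to 3. The ratio of FASN to SCD was 1.17, 0.987 and 1.31 in shNC and 1.82, 1.45 and 1.47 in shARHGEF2 cells. The ratio to SREBF1 was 7.76, 7.93 and 10.2 in shNC and 11.6, 12.6 and 11.1 in shARHGEF2 cells. None of these 3 ratios overlapped between the groups. The summed level of the 10 genes was 369, 412 and 453 FPKM in shNC and 531, 540.2 and 526 FPKM in shARHGEF2 cells. Without FASN it was 240.5, 281.1 and 280.6 FPKM in shNC and 290.8, 319 and 312 FPKM in shARHGEF2 cells. FASN made up 31.8% to 38.0% of the sum in shNC and 40.7% to 45.2% in shARHGEF2 cells.

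**Figure D4:**
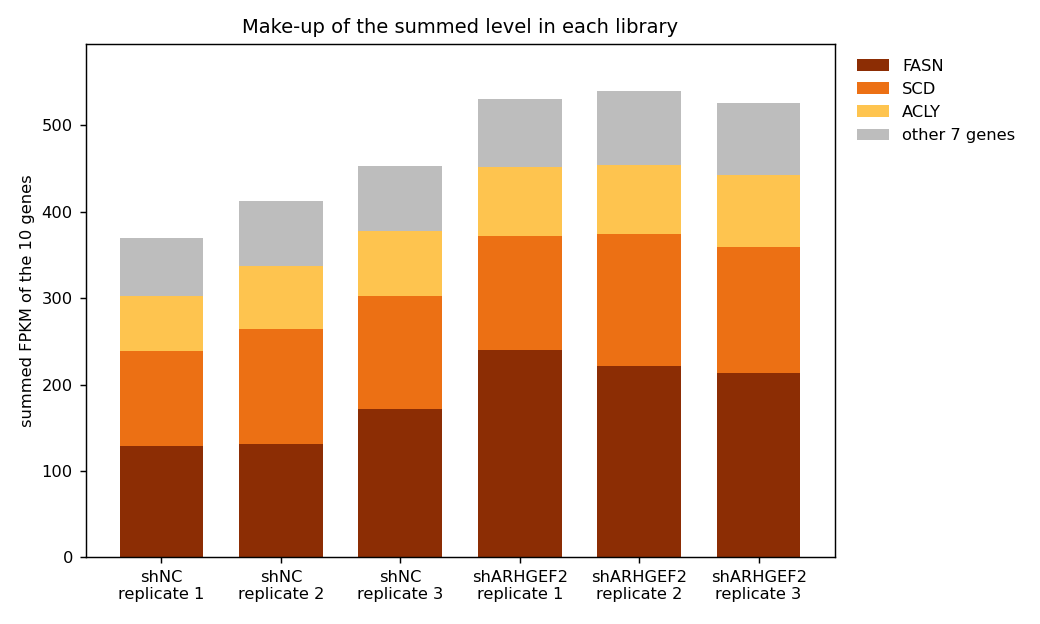
Summed FPKM of the 10 genes in each of the 6 libraries, split into FASN, SCD, ACLY and the other 7 genes. Every shARHGEF2 bar (526 to 540.2 FPKM) is taller than every shNC bar (369 to 453 FPKM), and the FASN segment is 129.0 to 172 FPKM in shNC and 214 to 239.9 FPKM in shARHGEF2 libraries.

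Within a group, the genes did not vary together as 1 block. FADS1, SCD, ELOVL5 and ACACA were each lowest in replicate 1 and highest in replicate 2 of both groups. SREBF1, FADS2 and ACSS2 were each lowest in replicate 2 of both groups, and were highest in shNC replicate 3 and in shARHGEF2 replicate 1. The libraries also differed along the GC content of the transcripts. Spearman's rho between GC content and a library's deviation from its group mean, a description over 12231 genes, was 0.38 and 0.60 in replicate 1 and -0.52 and -0.49 in replicate 2 of shNC and shARHGEF2. The median GC content of the listed transcripts was 63.4%, 55.4% and 54.6% for SREBF1, FADS2 and ACSS2, and 55.9%, 47.1%, 44.5% and 47.6% for FADS1, SCD, ELOVL5 and ACACA. After removal of this trend, SCD had a log2 fold change of 0.23 with an unadjusted p of 0.0238 in limma. SREBF1 went from 0.19 to 0.14 (limma unadjusted p = 0.152), and FADS1 from 0.22 to 0.21 (limma unadjusted p = 0.160). Of the 10 genes, 9 were above 0.

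Pathway genes around the 10 were described from lists that were also chosen with earlier results known. Of 67 genes in 8 lists, 59 were tested. At an unadjusted p under 0.05, 13 of the 59 were higher and 1 was lower in shARHGEF2 cells, where 8.1% of all genes tested were higher and 5.55% were lower. The counts for single lists below are to be read against these shares. Among 12 tested genes of SREBP control, 8 were above 0, with a median log2 fold change of 0.07, and 3 had an unadjusted p under 0.05, all higher. MID1IP1, which promotes the assembly of acetyl-CoA carboxylase, had 32.2, 28.6 and 36.2 FPKM in shNC and 49.9, 44.3 and 41.2 FPKM in shARHGEF2 cells (log2 fold change 0.47, limma adjusted p = 0.139). INSIG1, which holds the SREBPs in the ER, had 14.0, 12.4 and 22.7 FPKM in shNC and 26.8, 39.3 and 21.4 FPKM in shARHGEF2 cells, with overlap (log2 fold change 0.80, limma adjusted p = 0.290). The other was MLXIPL, the gene of the glucose-sensing factor ChREBP, named here after its values were seen, at 0.28 on the log2 scale. SREBF2, which encodes the cholesterol-directed SREBP2 and was the most abundant gene of the list, differed by 0.11, with a range of 0.05 to 0.22 when 1 library was left out.

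Of 6 tested genes that supply acetyl-CoA and NADPH, SLC25A1, the mitochondrial citrate carrier upstream of ACLY, had the lowest p. It had 93.6, 80.0 and 96.2 FPKM in shNC and 121, 109 and 105.0 FPKM in shARHGEF2 cells, without overlap (log2 fold change 0.31, limma adjusted p = 0.233). PGD, an NADPH-making enzyme of the pentose phosphate pathway, differed by 0.08 on the log2 scale. Of 4 tested genes of glycerolipid synthesis, all were above 0 in the reported fit, and 2 had an unadjusted p under 0.05. DGAT2, which makes triglyceride, had 4.86, 3.44 and 3.27 FPKM in shNC and 5.36, 5.02 and 6.39 FPKM in shARHGEF2 cells (log2 fold change 0.45, limma adjusted p = 0.255). AGPAT2 differed by 0.35 (limma adjusted p = 0.359) with overlap between the groups, and by 0.18 without shNC replicate 2. DGAT1 differed by 0.03, and was below 0 in 5 of 14 alternatives, among them quantile normalization (-0.0040) and removal of the GC trend (-0.015).

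Of 10 tested other elongation and desaturation enzymes, 7 were below 0 (median -0.03), and ELOVL1, an elongase of very long chains, was the 1 gene with an unadjusted p under 0.05. It had 32.2, 28.5 and 33.9 FPKM in shNC and 25.1, 25.6 and 28.6 FPKM in shARHGEF2 cells (log2 fold change -0.25, limma adjusted p = 0.345). FADS3 differed by -0.27 and TECR by 0.12. The 5 tested genes of malonyl-CoA and mitochondrial fatty acid synthesis had a median of -0.09, with MCAT at -0.22 and MECR at -0.09. The 4 tested acyl-CoA synthetases had a median of -0.07, with ACSL4 at -0.31, ACSL3 at -0.08 and ACSL1 at 0.10. The value of ACSL4 rested on single libraries, at -0.50 without shNC replicate 1, -0.09 without shNC replicate 2, -0.02 without shARHGEF2 replicate 1 and -0.56 without shARHGEF2 replicate 2. The 8 genes of fatty acid oxidation had a median of -0.02, with ACADVL at 0.17 and HADHA at -0.0091. PPARA, a regulator of oxidation, was the 1 gene of that list with an unadjusted p under 0.05, at 0.301, 0.245 and 0.343 FPKM in shNC and 0.787, 0.2996 and 1.147 FPKM in shARHGEF2 cells, with overlap. It passed the filter of 0.5 FPKM only through the shARHGEF2 group (mean 0.745 FPKM, against 0.296 FPKM in shNC). It dropped out of the test without shARHGEF2 replicate 1 or 3. Its p is therefore not read as a result, though PPARA is among the 13 higher list genes counted above. In 10 cholesterol genes under SREBP2, 9 were above 0 (median 0.44), and 6 had an unadjusted p under 0.05, all higher. FDFT1 differed by 0.57 (limma adjusted p = 0.105).

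**Figure D5:**
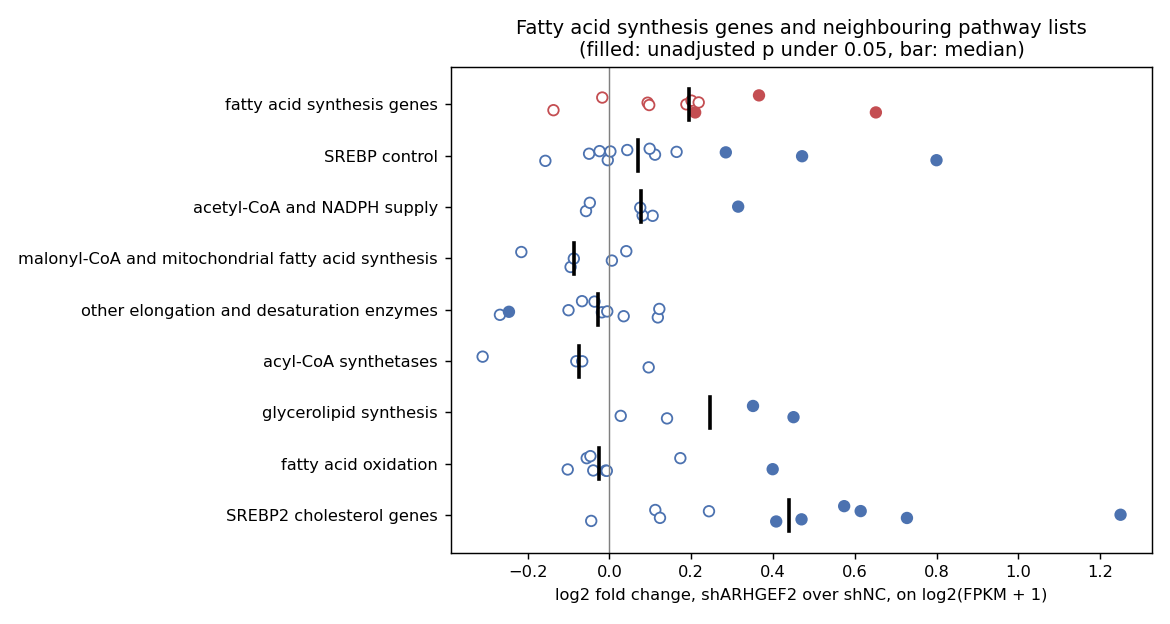
Log2 fold change of each tested gene (points, shARHGEF2 over shNC on log2(FPKM + 1)) for the 10 fatty acid synthesis genes and 8 neighbouring lists, with the median of each as a bar. Filled points have an unadjusted p under 0.05. The medians run from -0.09 for malonyl-CoA and mitochondrial fatty acid synthesis to 0.44 for the cholesterol genes, with 0.19 for the 10 genes.

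The gene whose profile over the 6 libraries came closest to the mean standardized profile of the 10 was B4GALT1, a galactosyltransferase of the Golgi. Its root mean square difference was 0.344 in SD units, against a median of 1.03 over 5442 candidates. BTN2A1 (0.349) and FKBP4 (0.354) followed. ACLY (0.383) and SCD (0.398) were the closest of the 10 to their own mean, and ELOVL6 (1.145) was the farthest. With 6 libraries and this many candidates, a close match is a description only.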

How the data were processed

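Poly(A) RNA libraries with strand marking and molecular identifiers were made from 3 shNC and 3 shARHGEF2 samples, which were grouped by their titles. The submitters' processing notes name cutadapt 1.9, HISAT2 2.0.4, UMI-tools, StringTie 1.3.4d, DESeq2 and edgeR, and the build hg19, without giving roles. The deposited table holds FPKM values made by the authors for each library. It also holds deposited columns of the authors' own comparison, namely a fold ratio, its log2 and p-values, which were not used.

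FPKM were tested as log2(FPKM + 1) with limma 3.58.1 (trended and robust variances, statmod 1.5.0, R 4.3.3) on the 12291 genes whose mean reached 0.5 FPKM. The Benjamini-Hochberg method was applied over all genes tested, and the call threshold was an adjusted p of 0.05. Intervals are 95% confidence intervals from the same fit. Single values were compared by two-sided exact permutation tests (SciPy 1.17.1). The fit was also run on simulated data, with an outcome that is not reported here. A gene that was not called is not thereby shown to be unchanged. Fold changes on this scale understate those of low genes.

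Read pairs per library, estimated from the spacing of low FPKM values, lay between 19726000 and 22956000. Between 38.1% and 39.8% of low values were within 0.1 of a whole number of pairs, against 20% by chance, so these depths are approximate, and no count test or counting interval was used. Gene positions, transcript length and GC content came from GENCODE 29 on GRCh38 by gene and transcript ID (94.7% of listed transcripts matched).

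The members, the pathway lists and the tests were chosen with earlier results of these data known. The genes named are the 10 members, ARHGEF2, in each list the 2 tested genes with the highest mean FPKM, the 2 with the smallest unadjusted p and any gene called, and the 3 genes of at least 5 FPKM most like the members' mean profile. THRSP was not analysed here. Some list genes that this rule names are not reported here, though they are included in the counts and medians. The settings varied were the pseudocount (0.1), the replicate number as a block, no filter, a filter of 1 FPKM in 3 libraries, quantile normalization, the TPM scale, limma without trend or robust variances and each library left out. A loess correction for GC content (span 0.3) was added after the data were seen.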

Additional observations from a re-analysis of the deposited data

How the results depend on the processing

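Of the 10 fatty acid synthesis genes, 0 were called in 13 of 14 alternatives and 0 to 1 with 1 library left out, the 1 being FASN without shNC replicate 3. The number with an unadjusted p under 0.05 was 2 to 3 with 1 library left out and 5 with the replicate block. The median log2 fold change stayed between 0.12 and 0.24. Genes called over the whole table numbered 34 as reported, 0 with the replicate block in limma (1976 at an unadjusted p under 0.05), 1 with no filter, 54 with at least 1 FPKM in 3 or more libraries, 19 with quantile normalization and 7 without trend or robust variances, and 6 to 102 with 1 library left out. The list genes with an unadjusted p under 0.05 numbered 14, and 7 to 10 with 1 library left out. ARHGEF2, at -1.47, had adjusted p = 0.0716 with the replicate block and 0.0701 with no filter in limma. Residuals of same-numbered libraries correlated at 0.18, 0.16 and -0.10. The trend with GC content had the same sign in both groups for replicates 1 and 2, and opposite signs for replicate 3 (0.24 and -0.19). Whether the replicate numbers pair the libraries cannot be settled from these values. The block changed no call among the 10 genes.

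Signs turned for ACACA on the TPM scale (0.016), with the GC content trend removed (0.010) and over the libraries left out (-0.10 to 0.079), for ELOVL5 (-0.021 to 0.23 over the libraries left out), for ACSL3 (-0.21 to 0.10), for DGAT1 with quantile normalization (-0.0040), with the GC trend removed (-0.015) and over the libraries left out (-0.028 to 0.14), and for HADHA on the TPM scale (0.028), with the GC trend removed (0.013) and over the libraries left out (-0.076 to 0.097). The causes were not tested. No scaling moved the median of all genes by more than 0.1. Genes near 1 FPKM rest on few read pairs.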
